A study of Mus musculus with 23 samples.

Results

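The surface molecules by which B cells show activation and exchange signals with T cells were followed through an RNA sequencing study of mouse spleen B cells carrying guide RNAs against Irf8, which encodes an interferon regulatory factor, a kind of transcription factor. The 10 genes were chosen by symbol as known costimulatory, coinhibitory and activation molecules, and are 10 of the 11944 genes listed in the deposited tables. Cd80, Cd86, Cd83, Cd69, Icosl, Cd274, Cd200 and Cd44 were listed for naive and for cultured cells, Pdcd1lg2 for naive cells alone, and Cd28 for cultured cells alone. A gene outside a table was not analysed there.

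KO cells carried guide 1 or guide 2 against Irf8 and were sorted as positive for Thy1.1, and WT cells carried no guide and were sorted as negative for it. Naive B cells (positive for B220, negative for CD11b, F4/80 and Thy1.2) gave 12 libraries, 3 KO and 3 WT for each guide, named A, B and C. Cultured cells gave 11 libraries, named m1 to m3, after culture with LPS, IL-5 and IL-2 for 72 hours, and their KO libraries carried guide 1. Activated B cells (positive for B220 and GL7, negative for CD138; 3 KO, 3 WT) and plasmablasts (positive for CD138; 3 KO, 2 WT) were sorted from these cultures. A guide to another target was not part of the design, so loss of Irf8, the carrying of a guide and the Thy1.1 sort cannot be told apart. The strain, sex and age of the mice and the way the guide was delivered are not given in the sources used here, and RNA was measured, not protein.

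T cells read antigen together with a second signal from the antigen-presenting cell. CD80 and CD86 give that signal through CD28 on the T cell and withdraw it through CTLA4, and the ICOS ligand (Icosl) supports helper T cells in follicles. PD-L1 (Cd274) and PD-L2 (Pdcd1lg2) restrain T cells through PD-1, and CD200 restrains myeloid cells through its receptor. CD83 rises on activated B cells and slows the removal of MHC class II and CD86 from the surface, CD69 is an early activation marker that holds lymphocytes in tissue by binding the sphingosine-1-phosphate receptor S1PR1, and CD44 binds hyaluronan. CD28 itself is best known from T cells and is also found on plasma cells.

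Cd80, Cd86 and Cd200 lie on chromosome 16, Cd200 at chr16:45382111-45409060 on the minus strand (GRCm38). Cd274 (chr19:29362107-29388095) and Pdcd1lg2 (chr19:29410919-29472927) are neighbours on the plus strand of chromosome 19, with 22823 bases between them. Cd83 lies at chr13:43785112-43803133. Of the 10 genes, 6 had an entry in the RefSeq promoter table (GRCm38.p6), and the 250 bases before the start used by that table are shown for Cd200, which differed most between naive KO and WT cells, and for Pdcd1lg2, the neighbour of Cd274. Capitals mark the letters GAAAC or their reverse complement GTTTC, the half-site bound by interferon regulatory factors. The table's start lies inside the gene span given above, by 5331 bases for Cd274 and by 7 for Cd200. The Cd274 window overlaps an exon of the opposite-strand gene Plgrkt in the GENCODE M21 annotation (chr19:29367206-29367390), and only 25 bases around each of its 2 half-site matches, both within that exon, are shown.
Cd200 promoter, chr16:45409054-45409303, minus strand: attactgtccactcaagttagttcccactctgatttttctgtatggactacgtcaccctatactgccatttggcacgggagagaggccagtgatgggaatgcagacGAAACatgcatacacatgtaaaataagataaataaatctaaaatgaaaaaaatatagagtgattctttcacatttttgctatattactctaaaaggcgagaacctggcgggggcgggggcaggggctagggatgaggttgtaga
Pdcd1lg2 promoter, chr19:29410669-29410918, plus strand: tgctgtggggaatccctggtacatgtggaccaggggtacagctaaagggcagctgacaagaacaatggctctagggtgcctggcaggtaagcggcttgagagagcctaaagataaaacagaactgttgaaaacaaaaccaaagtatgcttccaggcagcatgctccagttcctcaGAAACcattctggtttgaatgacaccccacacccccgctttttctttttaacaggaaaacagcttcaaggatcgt
Cd274, chr19:29367252-29367276, plus strand: ccgaagcctaGTTTCgttttttctt
Cd274, chr19:29367356-29367380, plus strand: ggtggcttcgGTTTCacagacagcg

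Both strands were searched. GAAAC stood at -144 to -140 from the table's start in Cd200, at -75 to -71 in Pdcd1lg2, at -176 to -172 and -72 to -68 in Cd274, and at -156 to -152 in Cd44. It was in 39.7% of all 32851 promoters of the table. The windows of Cd80 and Icosl held no match. These are matches of letters, and binding was not measured.

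Several libraries stood apart and are named before the results that rest on them. Estimated reads assigned to genes were 14500000 to 22200000 per naive library and 4320000 to 26900000 per cultured library. Plasmablast KO m3 was far below them, with 50900. There each of the 9 listed molecules rested on 0 to 5 reads, and Cd80, Cd200 and Cd28 were listed at 0. The activated m3 libraries went against their labels: Thy1 was at 0.093 RPKM in the library labelled KO and at 25.7 in the library labelled WT, against 21.9 and 27.8 in the other KO and 0.013 and 0.055 in the other WT libraries. Irf8 went the same way, with 92.4 RPKM in the library labelled KO m3 and 59.998 in the library labelled WT m3, against 69.2 and 68.1 in KO and 108 and 93.6 in WT. In plasmablasts Irf8 was at 17.5, 21.4 and 24.2 RPKM in KO and at 24.6 and 17.6 in WT, overlapping (log2 difference 0.00 with a 95% interval of -0.66 to 0.67, limma adjusted p = 0.994), while Thy1 was at 32.8 to 40.7 in KO and at 0.057 and 0.142 in WT. In naive cells Irf8 was at 47.6 to 77.7 RPKM in the 6 KO and at 79.8 to 98.0 in the 6 WT libraries. Thy1 was at 8.88 to 22.1 RPKM in the 6 naive KO libraries and at 0 to 0.052 in 5 naive WT libraries, and the remaining one, library A of WT in the guide 1 arm, had 4.93 with Irf8 at 95.8. Naive KO guide 1 library A listed 1405 genes at 0, against 66 to 291 in the other naive libraries. It also held the macrophage gene C1qa at 13.3 RPKM, which was at most 2.15 in the others. Of 10 macrophage and monocyte markers 7 were listed for naive cells, and their summed level was 5.17 to 36.2 RPKM in KO guide 1, 5.50 to 7.49 in KO guide 2, 8.03 to 13.3 in the WT libraries of the guide 1 arm and 5.24 to 14.9 in those of the guide 2 arm. Csf1r, like C1qa a defining macrophage gene, was among the genes at 0 in KO guide 1 library A. Cd3e, Cd3d and Cd3g, the defining T cell genes, were not listed. Of 10 T cell markers 3 were listed for naive cells. Their summed level was 15.7 to 41.0 RPKM in KO guide 1 and 18.1 to 30.4 in KO guide 2. In WT it was 16.1 to 21.0 in the guide 1 arm and 16.0 to 21.7 in the guide 2 arm. The 8 B cell markers were listed in both tables.

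Naive KO and WT cells were compared over both guides to ask whether these molecules differ with the Irf8 guides before stimulation. Cd274 was higher in KO cells and Cd200 and Cd83 were lower, so that 1 ligand that restrains T cells rose while another inhibitory ligand and an activation marker fell. Of the 9 molecules listed, all passed the filter on low values, and 3 were called at an adjusted p under 0.05 by limma, against 1.88% of the 10137 genes tested (1.03% called higher and 0.858% lower). Without KO guide 1 library A the count was 3 again, against 3.84% of 10068 genes. The same 3 were those with no overlap between the 6 KO and the 6 WT libraries, a pattern that 1.88% of tested genes also showed. Without WT library A of the guide 1 arm, which held Thy1, Cd274 and Cd200 were called (log2 differences 1.01 and -1.10, limma adjusted p = 0.00508 and 0.00962) and Cd83 was not (-0.34, limma adjusted p = 0.0557). The median log2 difference of the 9 was 0.20, against -0.02 over all tested genes.

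Cd274 (Entrez 60533), the gene of PD-L1, was at 76.3, 52.5 and 61.7 RPKM in KO guide 1 libraries A to C and at 46.2, 45.5 and 36.5 in KO guide 2, against 34.2, 21.8 and 22.6 in WT of the guide 1 arm and 31.0, 25.8 and 29.2 in WT of the guide 2 arm. Each KO library was above each WT library, and the guide 1 KO libraries were all above those of guide 2. The mean was 53.1 ± 14.1 RPKM in KO and 27.4 ± 4.88 in WT (SD, n = 6 each), a log2 difference of 0.91 on the log2(RPKM + 1) scale used throughout (SE 0.13, limma adjusted p = 0.00549). Library A of KO guide 1 was the highest, and without it the difference was 0.84 (limma adjusted p = 0.00197). Part of Cd274, 511 exon bases, overlaps an annotated gene on the opposite strand, AC119228.1, and since the counting is not stated to use strand, reads of the pair cannot be told apart.

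Cd200 (Entrez 17470) was at 6.22, 8.04 and 4.80 RPKM in KO guide 1 and at 5.43, 4.77 and 7.25 in KO guide 2, against 15.1, 12.5 and 14.1 in WT of the guide 1 arm and 12.1, 16.9 and 15.4 in WT of the guide 2 arm. Every KO library was below every WT library, and the ranges of the KO libraries of both guides overlapped. The mean was 6.09 ± 1.34 RPKM in KO and 14.3 ± 1.82 in WT (SD, n = 6 each), a log2 difference of -1.13 (SE 0.15, limma adjusted p = 0.00412). This was the difference farthest from 0 among the 9 molecules.

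Cd83 (Entrez 12522) was the most abundant of them in naive cells per base of the gene lengths in the files, and its change was small. It was at 103, 97.5 and 94.0 RPKM in KO guide 1 and at 103, 98.6 and 113 in KO guide 2, against 140, 133 and 128 in WT of the guide 1 arm and 124, 130 and 126 in WT of the guide 2 arm. The highest KO library lay below the lowest WT library. The means were 101 ± 6.54 RPKM in KO and 130 ± 6.02 in WT (SD, n = 6 each), a log2 difference of -0.36 (SE 0.07, limma adjusted p = 0.0161). This call was lost without KO guide 2 library B, WT library A of the guide 1 arm or WT library B of the guide 2 arm (limma adjusted p = 0.0557, 0.0557 and 0.0606), with differences of -0.34 to -0.35.

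**Figure D1:**
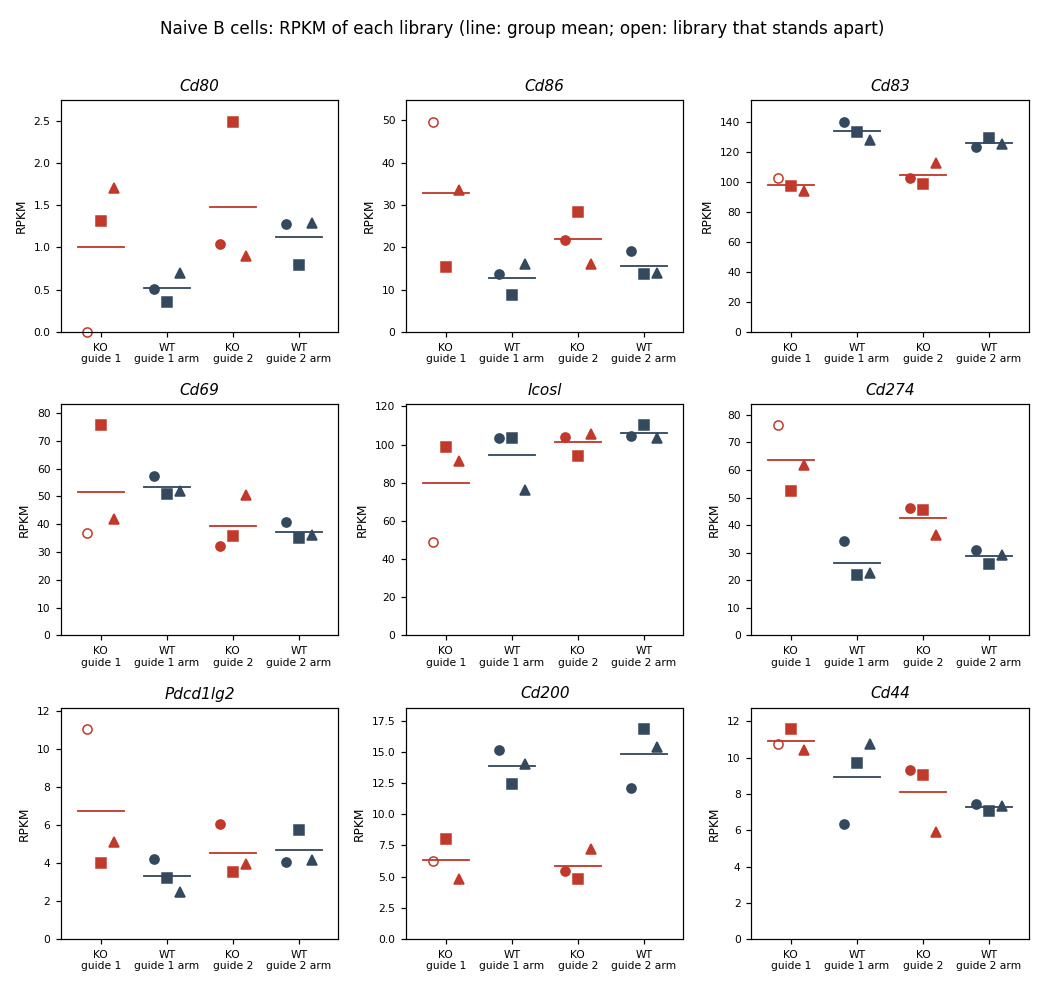
RPKM of each naive library (vertical axis, linear) for 9 molecules, with KO (red) left of WT (dark) in each guide arm. Circles, squares and triangles are libraries A, B and C, lines are group means, and the open circle is KO guide 1 library A. Cd274 lies higher, and Cd200 and Cd83 lower, in all 6 KO libraries.

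The CD28 ligands did not pass the test. Cd86 was at 49.7, 15.3 and 33.5 RPKM in KO guide 1 and at 21.6, 28.3 and 16.1 in KO guide 2, against 13.6, 8.80 and 16.1 in WT of the guide 1 arm and 19.1, 13.6 and 13.8 in WT of the guide 2 arm. Of the 6 KO libraries, the 4 highest were above every WT library and the other two were within the WT range. The means were 27.4 ± 13.0 RPKM in KO and 14.2 ± 3.39 in WT (SD, n = 6 each), a log2 difference of 0.82 with a 95% interval of 0.28 to 1.37 (limma adjusted p = 0.152). Without KO guide 1 library B, its lowest KO library, the difference was 1.05 and passed (limma adjusted p = 0.0113), as it did with limma's arrayWeights (0.80, limma adjusted p = 0.027). The highest value was in KO guide 1 library A, which also held the macrophage gene C1qa, whose part in it was not tested. Without that library the difference was 0.64 (limma adjusted p = 0.114). Cd80 was low, at 1.24 ± 0.83 RPKM in KO and 0.82 ± 0.39 in WT (SD, n = 6 each), and was listed at 0 in KO guide 1 library A (log2 difference 0.23, limma adjusted p = 0.747).

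Icosl was among the most abundant of the 9, at 90.5 ± 21.1 RPKM in KO and 100.3 ± 11.98 in WT (SD, n = 6 each). Its lowest library, at 49.0 RPKM, was KO guide 1 library A, and the other KO libraries were at 91.2 to 106, inside the WT range of 76.4 to 110 (log2 difference -0.18, limma adjusted p = 0.653). Pdcd1lg2, the neighbour of Cd274, was at 5.61 ± 2.82 RPKM in KO libraries and 3.98 ± 1.096 in WT (SD, n = 6 each), and its highest value of 11.1 was again in that library (log2 difference 0.35, limma adjusted p = 0.548). Cd69 had 45.5 ± 16.1 RPKM in KO and 45.3 ± 9.29 in WT, and Cd44 had 9.51 ± 1.99 in KO and 8.10 ± 1.72 in WT (SD, n = 6 each). The 95% intervals of their log2 differences were -0.39 to 0.32 for Cd69 and -0.12 to 0.52 for Cd44. Both intervals span 0.

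Taking the guides singly, the same 3 molecules were called with guide 1 and 0 with guide 2, against 1.11% and 0.0296% of all tested genes. By limma 3 of the 9 had an unadjusted p under 0.05 with guide 2, as did 426 of all genes. With guide 1 the log2 differences were 1.26 for Cd274 (limma adjusted p = 0.012), -1.04 for Cd200 (limma adjusted p = 0.0377) and -0.45 for Cd83 (limma adjusted p = 0.0424). With guide 2 they were 0.56 (limma adjusted p = 0.828), -1.22 (limma adjusted p = 0.127) and -0.27 (limma adjusted p = 0.848), in the same order. Without KO guide 1 library A, which sets part of the spread in the shared fit, Cd200 was also called with guide 2 (limma adjusted p = 0.0167), 1 of 9 against 0.348% of genes. The guide 1 calls were near the threshold: Cd200 and Cd83 each lost theirs in 12 of 20 alternatives, among them the omission of any 1 WT library, KO guide 1 library C or KO guide 2 library A or B, and Cd274 lost its own without WT library B or C of the guide 1 arm (limma adjusted p = 0.0511 and 0.0759). The test of the difference between the guides called 0 of the 9 molecules and 0 of the 10137 genes (0%; by limma, 479 genes had an unadjusted p under 0.05 and the lowest adjusted p was 0.918). For Cd274 that difference, guide 2 minus guide 1, was -0.70 with a 95% interval of -1.27 to -0.13 (limma adjusted p = 0.918).

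**Figure D2:**
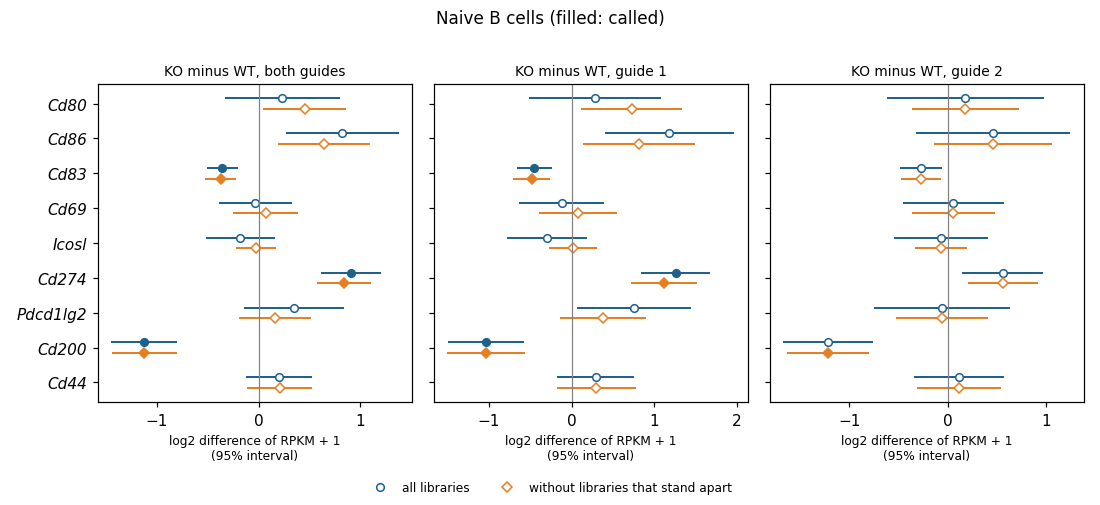
Log2 differences, KO minus WT, of 9 molecules in naive cells (horizontal axis, log2 of RPKM + 1, bars 95% intervals) for both guides, guide 1 and guide 2. Circles use all libraries, diamonds leave out KO guide 1 library A, and filled symbols passed the threshold; Cd274 lies right of 0 and Cd200 and Cd83 left of it in every panel.

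Across the 12 naive libraries, Cd83 and Cd200 moved together (Pearson r = 0.92 of log2(RPKM + 1)) and so did Cd86 and Cd274 (r = 0.844), while Cd274 and its neighbour Pdcd1lg2 had r = 0.679. These values describe 12 libraries of both genotypes that share the same genotype difference. By the same measure the genes most like Cd200 were Rnase6 (0.93), Cd83 and Treml2 (0.911), those most like Cd274 were Cep250 (0.938), Nfatc1 (0.93) and Ube2e2 (0.927), and those most like Cd83 were Rnase6 (0.942), Herpud1 (0.932) and Cd200.

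Related lists were counted in the same naive comparison, in which 0.858% of the 10137 tested genes were called lower and 1.03% higher. Of 11 tested T cell receptors and ligands of the B7 and TNF families and 9 SLAM family genes, 0 were called by limma (1289 of all genes had an unadjusted p under 0.05). Of 11 inhibitory B cell receptors 1 fell, Ceacam1, at 9.94 ± 1.68 RPKM in KO and 16.1 ± 2.78 in WT. Of 25 other activation and adhesion molecules 2 fell, the selectin ligand Selplg, at 28.1 ± 4.61 RPKM in KO and 50.0 ± 9.99 in WT, and the adhesion ligand Icam2, at 31.7 ± 7.14 in KO and 48.5 ± 5.80 in WT. Of 30 activation transcription factors 4 fell: Bach2, a repressor of plasma cell differentiation, at 6.93 ± 2.46 RPKM in KO cells and 17.5 ± 3.54 in WT, the germinal centre repressor Bcl6 at 16.0 ± 2.06 in KO and 24.1 ± 3.31 in WT, the immediate early factor Egr1 at 8.18 ± 2.996 in KO and 16.6 ± 1.89 in WT, and the quiescence factor Klf2 at 201 ± 43.0 in KO and 304 ± 32.5 in WT. Of 11 binding partners and regulators of the members 1 fell, Vim (limma adjusted p = 0.048). SDs are over 6 libraries each, and 0 genes of these lists rose with all libraries. Without KO guide 1 library A the genes that fell all kept their call, and 1 gene was called higher in each of 3 lists, Sh2d1b1 (SLAM family, log2 difference 1.03), Ly6a (activation and adhesion, 0.59) and S1pr1 (binding partners, 0.40). In that fit 3.84% of 10068 genes were called in either direction, against 1.88% with all libraries. Median log2 differences of the lists were between -0.22 and 0.03, against -0.02 over all tested genes.

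In cultured cells the calls among these molecules were between the stages. Plasmablasts held less Cd83, Cd86, Cd80, Cd69, Cd200 and Icosl and more Cd28 and Cd44 than activated B cells, once the activated m3 libraries and plasmablast KO m3 were left out. With all libraries 2 of 9 were called lower in WT plasmablasts (1.43% of 9986 genes were called lower, 1.76% in either direction) and 2 of 9 in KO plasmablasts (2.67% lower, 3.44% in either direction). Without the 3 libraries each cultured group held 2, here and in the later results, and 1 of them, WT plasmablast m2, had 4320000 estimated reads. In that fit 9 of 9 were called in WT, 3 higher and 6 lower, and 8 of 9 in KO, 2 higher and 6 lower. These shares stand against a wide change of stage, in which 46.3% of all 9861 tested genes were called in WT (15.5% higher, 30.7% lower) and 33.6% in KO (12.1% higher, 21.5% lower). With all libraries the median log2 difference of the 9 molecules was -0.91 in KO and -0.77 in WT. Over all genes it was -0.22 in KO and -0.12 in WT, and 0.01 in both after quantile normalization. In bulk RNA, a lower level can come from less RNA per cell or from fewer cells that hold it, and these cannot be told apart.

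Cd83 was at 13.8, 17.7 and 22.5 RPKM in KO plasmablasts m1 to m3, the last from 5 reads, and at 93.5, 100.1 and 74.7 in the activated libraries labelled KO. In WT plasmablasts it was at 9.75 and 7.05, and in the activated libraries labelled WT at 117, 98.4 and 53.7. Every plasmablast library was below every activated library. The log2 difference was -2.27 in KO (limma adjusted p = 0.00842) and -3.21 in WT (limma adjusted p = 0.00435), and without the 3 libraries it was -2.56 and -3.54. The call was lost in WT without WT plasmablast m2 (limma adjusted p = 0.102) and in KO without activated KO m2 (limma adjusted p = 0.0582). On the RPKM scale, without them, plasmablasts were 6.15-fold lower in KO and 12.8-fold lower in WT.

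Cd86 was at 1.32, 0.297 and 4.74 RPKM in KO plasmablasts, the last from 1 read, and at 10.5, 9.23 and 6.38 in the activated libraries labelled KO. It was at 0.686 and 0.787 in WT plasmablasts and at 12.2, 8.84 and 4.07 in the activated libraries labelled WT. Apart from the value from 1 read, each plasmablast library was below each activated one. With all libraries it missed the threshold in KO (log2 difference -1.89, limma adjusted p = 0.0876) and in WT (-2.33, limma adjusted p = 0.0906), and without the 3 libraries plasmablasts were 12.2-fold lower in KO (limma adjusted p = 4.62e-06) and 14.3-fold lower in WT (limma adjusted p = 1.94e-06). Cd80, the other CD28 ligand, was at 1.33, 0.705 and 0 RPKM in KO plasmablasts and at 2.60, 3.37 and 3.20 in the activated libraries labelled KO. It was at 0.695 and 0.32 in WT plasmablasts, the last from 6 reads, and at 3.85, 3.51 and 2.44 in the activated libraries labelled WT. Its log2 difference was -1.35 in KO (limma adjusted p = 0.0494) and -1.50 in WT (limma adjusted p = 0.0731), and without the 3 libraries it was -0.99 and -1.65, both called. The call with all libraries was lost in 15 of 21 alternatives, among them the omission of any 1 library but plasmablast KO m1 or m3.

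Cd69 was at 23.6, 21.1 and 22.4 RPKM in KO plasmablasts, the last from 3 reads, and at 64.3, 56.4 and 35.7 in the activated libraries labelled KO. In WT plasmablasts it was at 22.8 and 13.3, and at 55.8, 47.1 and 42.8 in the activated libraries labelled WT. No plasmablast library reached the lowest activated one. The log2 difference was -1.14 in KO (limma adjusted p = 0.0507) and -1.42 in WT (limma adjusted p = 0.04996), and without the 3 libraries both were called (-1.39 and -1.50). The call in WT with all libraries was lost in 13 of 21 alternatives, among them the omission of any 1 library but activated KO m3 and plasmablast KO m3. Cd200 had 0.29, 0.092 and 0 RPKM in KO plasmablasts and 1.04, 1.27 and 1.008 in the activated libraries labelled KO. It had 0.452 and 0.035 in WT plasmablasts, the last from 1 read, and 1.66, 1.33 and 0.464 in the activated libraries labelled WT. It missed the threshold with all libraries (limma adjusted p = 0.118 in KO and 0.313 in WT), and without the 3 its log2 difference was -0.86 in KO (limma adjusted p = 0.00392) and -1.02 in WT (limma adjusted p = 0.000772). At these depths the plasmablast level of Cd200 is known only roughly.

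Icosl depended on plasmablast KO m3. It was at 0.713 and 0.658 RPKM in KO plasmablasts m1 and m2 and at 10.2 in m3, the last from 3 reads, against 2.01, 1.13 and 1.14 in the activated libraries labelled KO. WT plasmablasts had 0.657 and 0.688, and the activated libraries labelled WT had 2.00, 1.24 and 0.702. With the 3 libraries left out Icosl was 2.28-fold lower in KO (limma adjusted p = 0.0364) and 2.41-fold lower in WT plasmablasts (limma adjusted p = 0.0187). With all libraries its log2 difference was 0.41 in KO (limma adjusted p = 0.7) and -0.43 in WT (limma adjusted p = 0.93).

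Cd28 went the other way. It was at 7.18, 5.96 and 0 RPKM in KO plasmablasts and at 1.08, 1.12 and 0.51 in the activated libraries labelled KO. It was at 6.17 and 6.71 in WT plasmablasts and at 0.281, 0.299 and 0.402 in the activated libraries labelled WT. Apart from m3, with 0 reads, every plasmablast library was above every activated library. Without the 3 libraries it was 6.002-fold higher in KO (log2 difference 1.85, limma adjusted p = 2.97e-06) and 22.2-fold higher in WT plasmablasts (2.53, limma adjusted p = 1.15e-07). With all libraries it missed the threshold in KO (limma adjusted p = 0.36) and in WT (limma adjusted p = 0.155). Cd3e, Cd3d and Cd3g, the defining T cell genes, were not listed for cultured cells, and 1 of 10 T cell markers was listed, Lck. It was at 1.02, 0.67 and 53.9 RPKM in KO plasmablasts m1 to m3 and at 0.728 and 0.246 in WT plasmablasts, against 3.49 to 5.04 in the activated libraries labelled KO and 3.41 to 3.61 in those labelled WT.

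Cd44 and Cd274 differed by small amounts. Cd44 was at 20.6, 20.6 and 3.12 RPKM in KO plasmablasts, the last from 2 reads, against 15.4, 15.2 and 16.8 in the activated libraries labelled KO, and at 21.5 and 17.9 in WT plasmablasts, against 15.6, 14.9 and 14.5 in the activated libraries labelled WT. With all libraries the log2 difference was -0.43 in KO (limma adjusted p = 0.613) and 0.37 in WT (limma adjusted p = 0.927). The WT estimate stayed at 0.37 without plasmablast KO m3 alone and was called (limma adjusted p = 0.0278), since that library enters the shared spread. With the 3 libraries omitted the log2 difference of Cd44 was 0.40 in KO (limma adjusted p = 0.0164) and 0.34 in WT (limma adjusted p = 0.0261). Cd274 was at 12.6, 12.3 and 5.39 RPKM in KO plasmablasts, the last from 1 read, against 12.2, 9.20 and 6.41 in the activated libraries labelled KO, and at 12.4 and 11.9 in WT plasmablasts, against 6.97, 9.11 and 10.1 in the activated libraries labelled WT. With all libraries its log2 difference was 0.07 in KO (limma adjusted p = 0.896) and 0.45 in WT (limma adjusted p = 0.718). Without the 3 libraries it was 0.22 in KO (limma adjusted p = 0.307) and 0.55 in WT (limma adjusted p = 0.01).

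**Figure D3:**
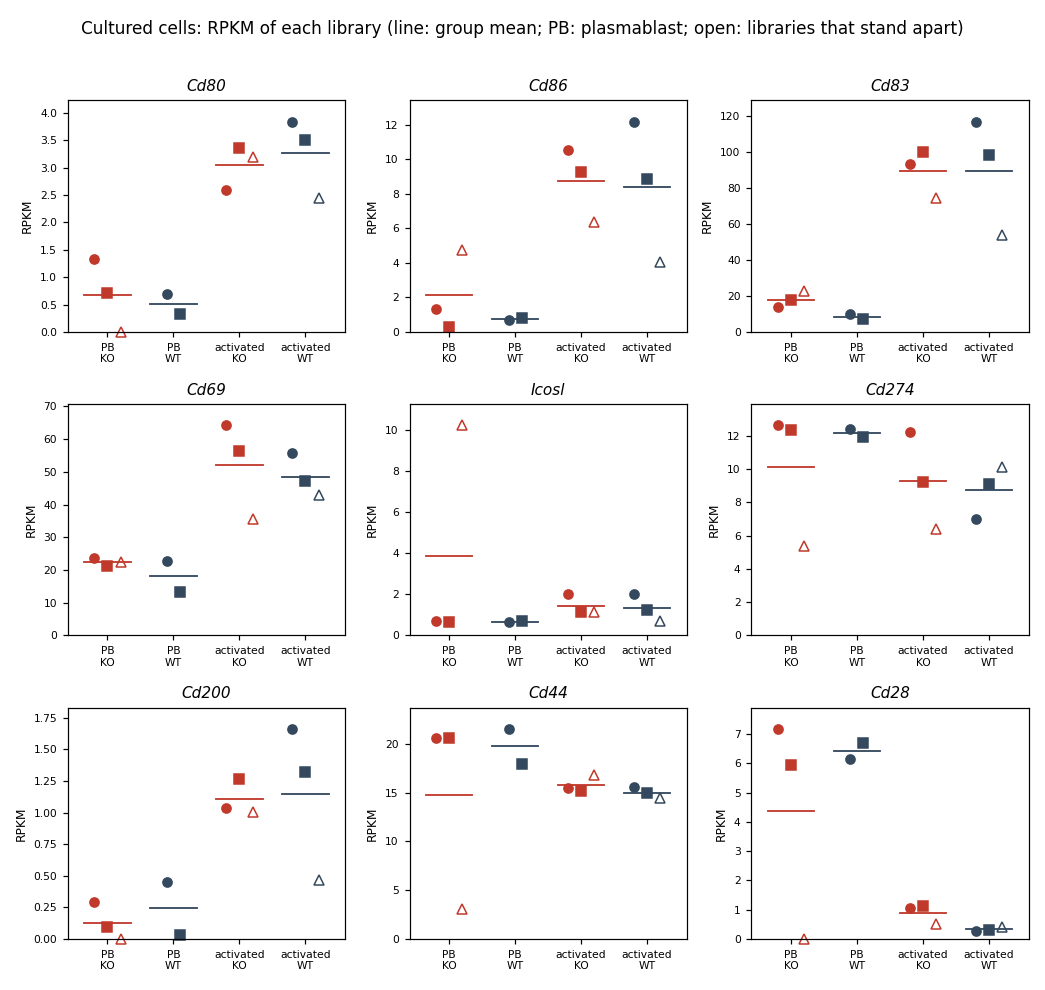
RPKM of each cultured library (vertical axis, linear) for 9 molecules, plasmablasts (PB) left of activated B cells and KO (red) left of WT (dark). Circles, squares and triangles are m1, m2 and m3, lines are group means over all libraries, and open triangles are the activated m3 libraries and plasmablast KO m3. Outside KO m3, Cd83, Cd69, Cd80 and Cd200 are lower and Cd28 is higher in every plasmablast library. KO m3 holds 0 to 5 reads per molecule.

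Over all plasmablast libraries but KO m3, set against all 6 activated libraries whatever their label, Cd28 and Cd44 lay wholly above and Cd69, Cd80, Cd83, Cd86 and Cd200 wholly below, and 37.8% of all tested genes did not overlap either. With KO m3 included, Cd69, Cd80, Cd83 and Cd200 lay below, against 19.6% of all tested genes. In KO m3 Cd80 and Cd200 had 0 reads, Cd69 had 3 and Cd83 had 5. At that depth a low value cannot show a lower level, so KO m3 adds little to this pattern. Over the 10 cultured libraries other than plasmablast KO m3, the genes most like Cd83 were Lsp1 (Pearson r = 0.997), Samd9l (0.996) and Bcl2a1a (0.995), those most like Cd69 were Snap29 (0.989), Scap (0.989) and Sike1 (0.986), and those most like Cd80 were Ptpn1 (0.988), Lpxn (0.988) and Cd22 (0.985). These values follow the split into 2 stages.

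KO and WT were compared within each stage, with guide 1. In activated B cells 0 of 9 molecules were called, as were 0 of 9986 genes (0%), by limma with 2 genes at an unadjusted p under 0.05 and every adjusted p at 1. Leaving out the 3 libraries, 0 of 9 were called, against 0.71% of 9861 genes. Cd28 came nearest, at 1.08 and 1.12 RPKM in KO m1 and m2 and at 0.281 and 0.299 in WT m1 and m2, a log2 difference of 0.70 (limma adjusted p = 0.0649). The m3 library labelled KO was at 0.51 and that labelled WT at 0.402, between these pairs. Cd274, called in naive cells, was at 10.7 ± 2.14 RPKM in KO libraries and 8.04 ± 1.51 in WT without the m3 libraries (SD, n = 2 each), with a log2 difference of 0.37 and a 95% interval of 0.04 to 0.70 (limma adjusted p = 0.344). Cd200 was at 1.15 ± 0.16 RPKM in KO libraries and 1.49 ± 0.24 in WT (SD, n = 2 each; log2 difference -0.21, limma adjusted p = 0.746).

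In plasmablasts 0 of 9 were called between KO and WT, as were 0 of 9986 genes (0%; by limma 85 had an unadjusted p under 0.05 and the lowest adjusted p was 0.609). Without the 3 libraries 0 of 9 were called, against 0.071% of 9861 genes. Of all tested genes 13.5% did not overlap between KO and WT plasmablasts (8.22% with KO above). Cd83 lay above WT in every KO library, 13.8 to 22.5 RPKM, the highest from 5 reads, against 7.05 to 9.75. Its log2 difference was 1.00 with a 95% interval of 0.23 to 1.78 (limma adjusted p = 0.609), and without the 3 libraries 0.84 with an interval of 0.51 to 1.17 (limma adjusted p = 0.0846). For Cd86 and Cd28 without these libraries the log2 differences were 0.00 and 0.02, with intervals of -0.52 to 0.51 and -0.32 to 0.36. Whether the KO-minus-WT difference changed between plasmablasts and activated B cells was tested for all genes, and 0 of 9 molecules and 0 of 9986 genes were called (0%; by limma 10 had an unadjusted p under 0.05 and the lowest adjusted p was 0.816). Without the 3 libraries 0 of 9 were called, against 0.0304% of genes. For Cd83 that difference was 0.95 (limma adjusted p = 0.816), and without the 3 libraries 0.99 with an interval of 0.52 to 1.45 (limma adjusted p = 0.203).

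**Figure D4:**
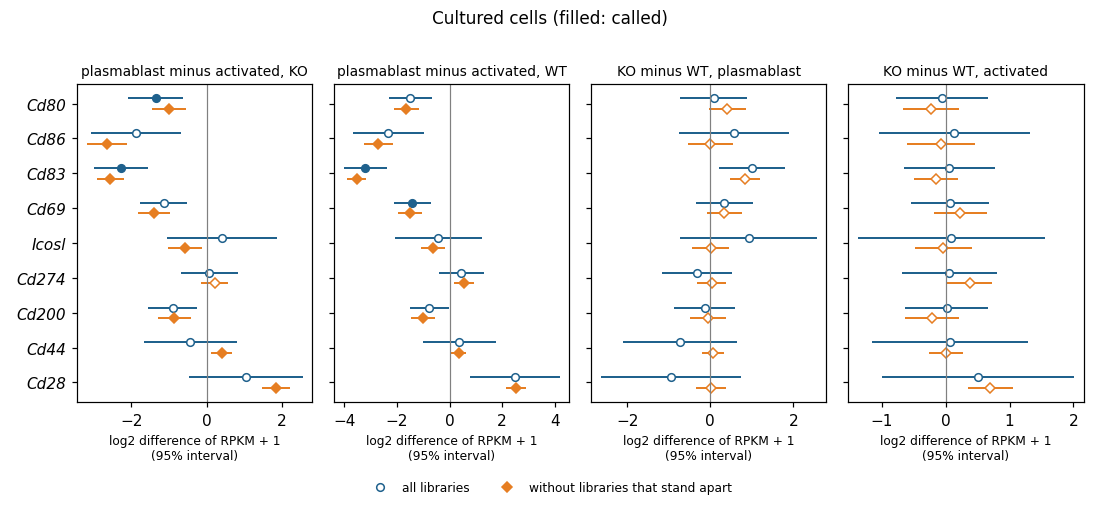
Log2 differences of 9 molecules in cultured cells (horizontal axis, log2 of RPKM + 1, bars 95% intervals), for plasmablasts minus activated B cells in KO and WT and for KO minus WT in each stage. Circles use all libraries, diamonds leave out the activated m3 libraries and plasmablast KO m3, and filled symbols passed the threshold; the stage panels hold all the filled symbols.

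Among related lists, the inhibitory B cell receptors stood lower in plasmablasts. Of 9 tested, 6 were called lower in KO and 4 in WT plasmablasts (2.67% and 1.43% of all genes), and 0 were called higher, with median log2 differences of -2.18 and -2.04 against -0.22 and -0.12 over all tested genes. Cd22, a sialic acid receptor that dampens B cell receptor signals, was at 5.91 ± 4.46 RPKM in KO plasmablasts and 53.5 ± 3.90 in the activated libraries labelled KO (SD, n = 3 each). Without plasmablast KO m3, Cd22 was at 3.38 ± 1.17 in KO plasmablasts (SD, n = 2). In WT it was at 1.03 ± 0.51 (SD, n = 2) and 56.6 ± 27.4 (SD, n = 3). Cd72, Siglecg and Ceacam1 were called lower in both. Without the activated m3 libraries and plasmablast KO m3, 7 of the 9 were called lower in each genotype, against 21.5% of all genes in KO and 30.7% in WT. Of 14 T cell receptors and ligands of the B7 and TNF families, the receptor Cd40 was called lower in WT plasmablasts, at 3.23 ± 1.19 RPKM (SD, n = 2) against 18.4 ± 6.53 (SD, n = 3). Cd40 was at 6.06 RPKM in KO plasmablasts against 18.6 in the activated libraries labelled KO, and was not called there. In KO plasmablasts Ctla4, the inhibitory receptor for CD80 and CD86, was called higher, at 28.4 ± 1.80 RPKM against 11.6 ± 3.62, and Lgals9 lower, at 61.8 ± 17.9 against 125.8 ± 11.9 (SD, n = 3 each). Without plasmablast KO m3 the KO plasmablast means were 29.0 ± 1.93 for Ctla4 and 71.9 ± 6.22 for Lgals9 (SD, n = 2 each). Ctla4 was at 27.1 ± 0.91 RPKM in WT plasmablasts (SD, n = 2) and 9.71 ± 3.31 in the activated libraries labelled WT (SD, n = 3), where it was not called. Lgals9 was at 77.5 RPKM in WT plasmablasts and 125.7 in the activated libraries labelled WT, also not called. Of the 9 SLAM family genes 0 were called by limma in either, where 2115 of all genes in KO and 1369 in WT had an unadjusted p under 0.05. Of 24 other activation and adhesion molecules, Spn (CD43) was called higher in both, and Cd37 was called lower in KO and Cd38 in WT. Cd37 was at 12.3 RPKM in WT plasmablasts against 50.2 in activated cells, and Cd38 in KO at 22.3 against 45.75, neither called. Of 12 binding partners and regulators of the members, Vim was called lower in KO plasmablasts and 0 in WT. Of 29 activation transcription factors 7 were called lower in KO and 4 in WT plasmablasts, Spib, Klf2, Bach2 and Batf in both. Every gene of the lists called with all libraries kept its call and direction without the 3 libraries, when more were called in each list: of the SLAM family, for example, 3 were called higher and 3 lower in each genotype.

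The naive and cultured tables were normalized separately, so levels across them are set side by side without a test. In WT cells Icosl was at 100.3 RPKM in naive, 1.62 in activated and 0.672 in plasmablast libraries, the widest span of the 8 molecules listed in both tables (activated and plasmablast means without the m3 libraries). Cd200 was at 14.3, 1.49 and 0.244 RPKM in the same order of stages, and Cd274 at 27.4, 8.04 and 12.2. Cd83 was at 130, 108 and 8.40, Cd86 at 14.2, 10.5 and 0.736, and Cd69 at 45.3, 51.5 and 18.0. Cd80 alone was highest in activated cells by more than the spread between libraries, at 0.819, 3.68 and 0.507 RPKM, and Cd44 had 8.10, 15.3 and 19.7. The activated and naive WT values of Cd69 and of Cd86 overlapped, while Cd83 was at 98.4 and 117 in activated m2 and m1 and at 124 to 140 in the 6 naive libraries.

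**Figure D5:**
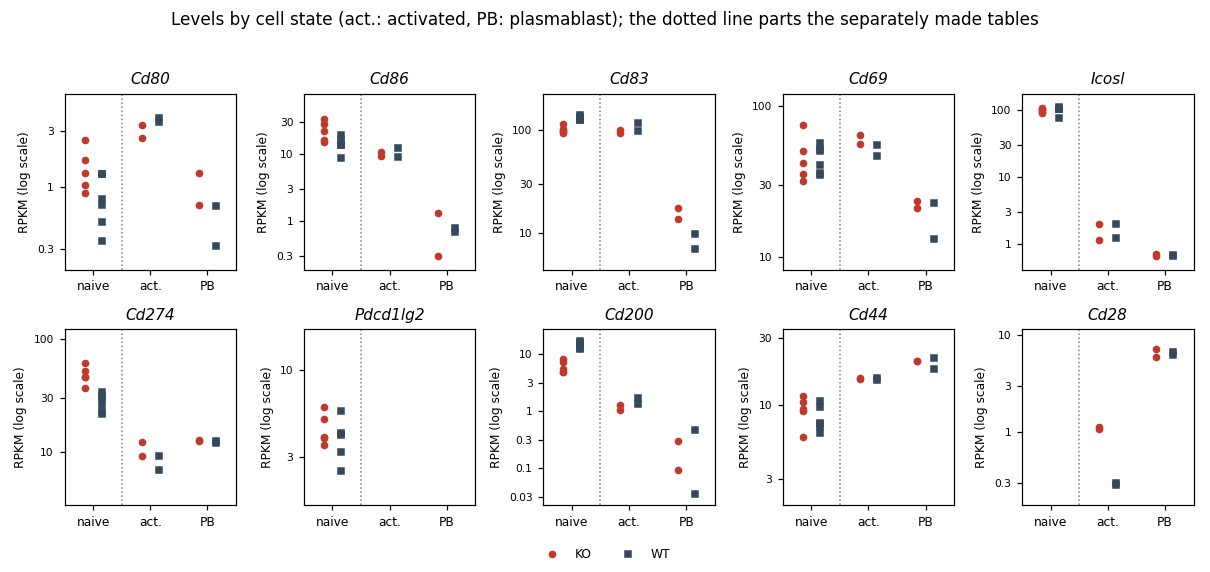
RPKM of each library (vertical axis, log scale) in naive and activated (act.) B cells and plasmablasts (PB), KO as red circles left of WT as dark squares. The dotted line parts the separately normalized tables, and KO guide 1 library A of the naive cells, the activated m3 libraries and plasmablast KO m3 are left out. Icosl, Cd200 and Cd274 are highest in naive cells. Cd28, not listed for naive cells, is higher in plasmablasts than in activated B cells.

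Levels of different molecules depend on the gene lengths in the files, which differed from the exon lengths of the GENCODE M21 annotation for 9 of the 10, for example 12512 against 6776 bases for Cd44 and 2613 against 6509 for Cd69. Ratios of RPKM of 1 gene between groups do not depend on them. The filter at 1 RPKM and the log2(RPKM + 1) differences do, most for genes near or below 1 RPKM.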

How the data were processed

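PolyA RNA of sorted cells was made into libraries with a SMART-seq v4 cDNA kit and NexteraXT, per the labels' protocols. The authors deposited RPKM, which divides reads by gene length and library total, computed separately for the naive and the cultured cells. The submitters' processing notes name STAR and mm10. The counting tool, its strand setting, the annotation and the rule for listing a gene are not given in the sources used here. The 15 symbols in each that had become dates were restored from the gene identifier. Reads per library were estimated from the steps between low values (99.5% to 100.0% of them within 0.2 of a whole number), and no counting interval is given.

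Groups came from the labels. Tests were run within a table in R 4.3.3 with limma 3.58.1 on log2(RPKM + 1), for genes that reached 1 RPKM in 2 or more libraries (10137 naive, 9986 cultured), with 1 mean per group, a trend in the spread, two-sided tests and Benjamini-Hochberg adjustment over all tested genes, and were first checked on simulated data. Called means an adjusted p under 0.05. The effect over both guides averages the differences of the 2 arms, and adding 1 shrinks differences of genes near or below 1 RPKM. Letters and m-numbers are not said to mark an animal or culture, so samples were treated as unpaired. Libraries sharing a letter or number correlated at r of -0.243 to 0.254 after group means were removed. In groups this small these values cannot show whether libraries were paired. The p-values reflect only how far these samples differ among themselves, which may be technical. Another WT plasmablast library was not analysed here.

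The 10 members and the related and marker lists were chosen with earlier results of these data known. All members are named. Of related lists, genes called are named, up to the 4 lowest p. Some genes of these lists are not reported here. Likeness is Pearson's r of log2(RPKM + 1) for the 3 members with the lowest p in each table. Promoters are from RefSeq, GRCm38.p6, positions from RefSeq on GRCm38. Alternatives were the pseudocount, the filter, the scaling, library weights, the groups in the fit, a replicate block and omission of libraries.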

Additional observations from a re-analysis of the deposited data

How the results depend on the processing

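Counts in this section are not set against the share of all genes called, which moved with the setting too. Without the activated m3 libraries and plasmablast KO m3 it rose from 1.76% to 46.3% for the stages in WT. The counts thus describe the calls and are no measure of these molecules against other genes. The count of 3 molecules called in naive cells over both guides was 2 to 4 when single libraries were left out, 4 (Cd86 added) with limma's arrayWeights and 2 with the replicate block, and Cd274 and Cd200 kept their call in all 19 alternatives run, while Cd83 lost it in 4. With guide 1 the count of 3 fell to 0 with only the groups compared in the fit and to 1 with the block, and was 0 to 4 without single libraries. With guide 2 the count of 0 became 1 (Cd200) with limma's arrayWeights and with only the groups compared, and was 0 to 1 without single libraries. In activated B cells KO against WT the count of 0 became 2 (Cd69, Cd28) with arrayWeights, whose estimate did not reach its convergence tolerance in cultured cells.

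For the stages in WT, plasmablasts against activated B cells, the count of 2 became 1 with a pseudocount of 0.1, 1 with no filter, 9 with arrayWeights, 5 with only the groups compared, 1 without both activated m3 libraries and 9 without these and plasmablast KO m3. It was 0 to 7 without single libraries, 7 without plasmablast KO m3. For the stages in KO the count of 2 became 1 with a pseudocount of 0.1, no filter, median centring, the replicate block or without both activated m3 libraries, 8 with arrayWeights, 0 with only the groups compared and 8 without the 3 libraries, and was 0 to 7 without single libraries. There the log2 difference of Cd44 (-0.43 with all libraries) was -0.83 to 0.36 without single libraries, turning to 0.36 without plasmablast KO m3, and turned to 0.40 with arrayWeights and 0.40 without the 3 libraries, and that of Icosl (0.41) to -0.59 without the 3 libraries. Plasmablast KO m3 held 0 to 5 reads per molecule; the cause of the other changes was not tested. The counts of the other comparisons stayed at 0 in the alternatives run. Libraries sharing a letter or number were treated as unpaired, and groups this small cannot show whether they were paired. The replicate block moved no other count by more than 1.5 times, though Cd83 over both guides missed the threshold with it (limma adjusted p = 0.0701). Fits with only the groups compared are the same fit where all groups enter a comparison.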
